A study of Mus musculus with 128 samples.

Results

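The data described here are RNA levels in interscapular brown fat of SM/J mice at 30 weeks of age, 8 mice on a high-fat diet against 8 on a low-fat diet. These 16 libraries were taken by strain, tissue, age and diet from the 128 of a series that also covers LG/J mice, reproductive white fat and an age of 20 weeks. SM/J is an inbred strain, and each diet was given to 4 females and 4 males, 1 library from each mouse, with no other treatment named. Per the labels, RNA was taken from frozen tissue and sequenced after removal of ribosomal RNA, so every cell type of the sampled tissue contributes. In such bulk tissue, fewer cells of a type and less RNA per cell cannot be told apart. Set beside them were 16 SM/J brown fat libraries of 20 weeks and 16 LG/J brown fat libraries of 30 weeks, with the same diets, sexes and numbers per group.

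Brown fat burns fatty acids and glucose to make heat, through the uncoupling protein Ucp1 of the inner mitochondrial membrane. It is also among the tissues that make much fatty acid of their own from glucose, a route known as de novo lipogenesis, in which citrate leaves the mitochondrion, is split to acetyl-CoA and is built into palmitate. That route is known to be held down by fat in the diet and driven by insulin and carbohydrate.

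Levels are given in CPM, the deposited normalised counts of each library rescaled so that the libraries can be compared, and changes as log2 of high-fat over low-fat with their standard error (SE) from limma. A gene was called when its Benjamini-Hochberg adjusted p was under 0.05 over all 12759 genes present in both tables. The 2 diets were deposited in separate tables, each scaled by itself, so diet and table cannot be told apart. The depth in reads is unknown, and the precision rests on the 8 mice per diet. The first principal component, 32.4% of the variance, set the diets apart, with scores of -36.5 to -13.0 in high-fat and -6.67 to 36.3 in low-fat libraries. Low-fat male 552 stood nearest to the high-fat mice. In this library 50.9% of the called genes lay inside the high-fat range, against 16.2% to 37.6% in the other 7 low-fat libraries. Summed markers of skeletal muscle exceeded 200 CPM in 5 libraries, reaching 4045 and 3425 in high-fat males 656 and 653, 1035 and 656 in low-fat females 662 and 661, and 401 in high-fat female 786. The other 11 libraries had 42.4 to 157.

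Of the 12759 genes, 2314 were higher and 2466 lower on the high-fat diet (18.1% and 19.3% of all genes, 37.5% together), and the median change over all genes was 0.02. The counts of each gene list below are to be read against these shares. Most changes were small, with a median size of 0.38 among the genes called higher and 0.35 among those called lower. More than 2-fold changes were found in 101 genes called higher and 159 called lower. The 8 high-fat and 8 low-fat values did not overlap for 350 genes called higher and 527 called lower, and over all genes for 877 (6.87%). The estimates for females alone and males alone both had the sign of the joint one in 2312 of the 2314 and 2465 of the 2466. The joint estimate comes from the same mice and the genes were chosen on it, so this agreement is largely built in. Without low-fat male 552, 2721 genes were higher and 2728 lower, and without the 5 libraries with high muscle sums 1391 and 1602, with 5 high-fat and 6 low-fat mice left.

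**Figure D1:**
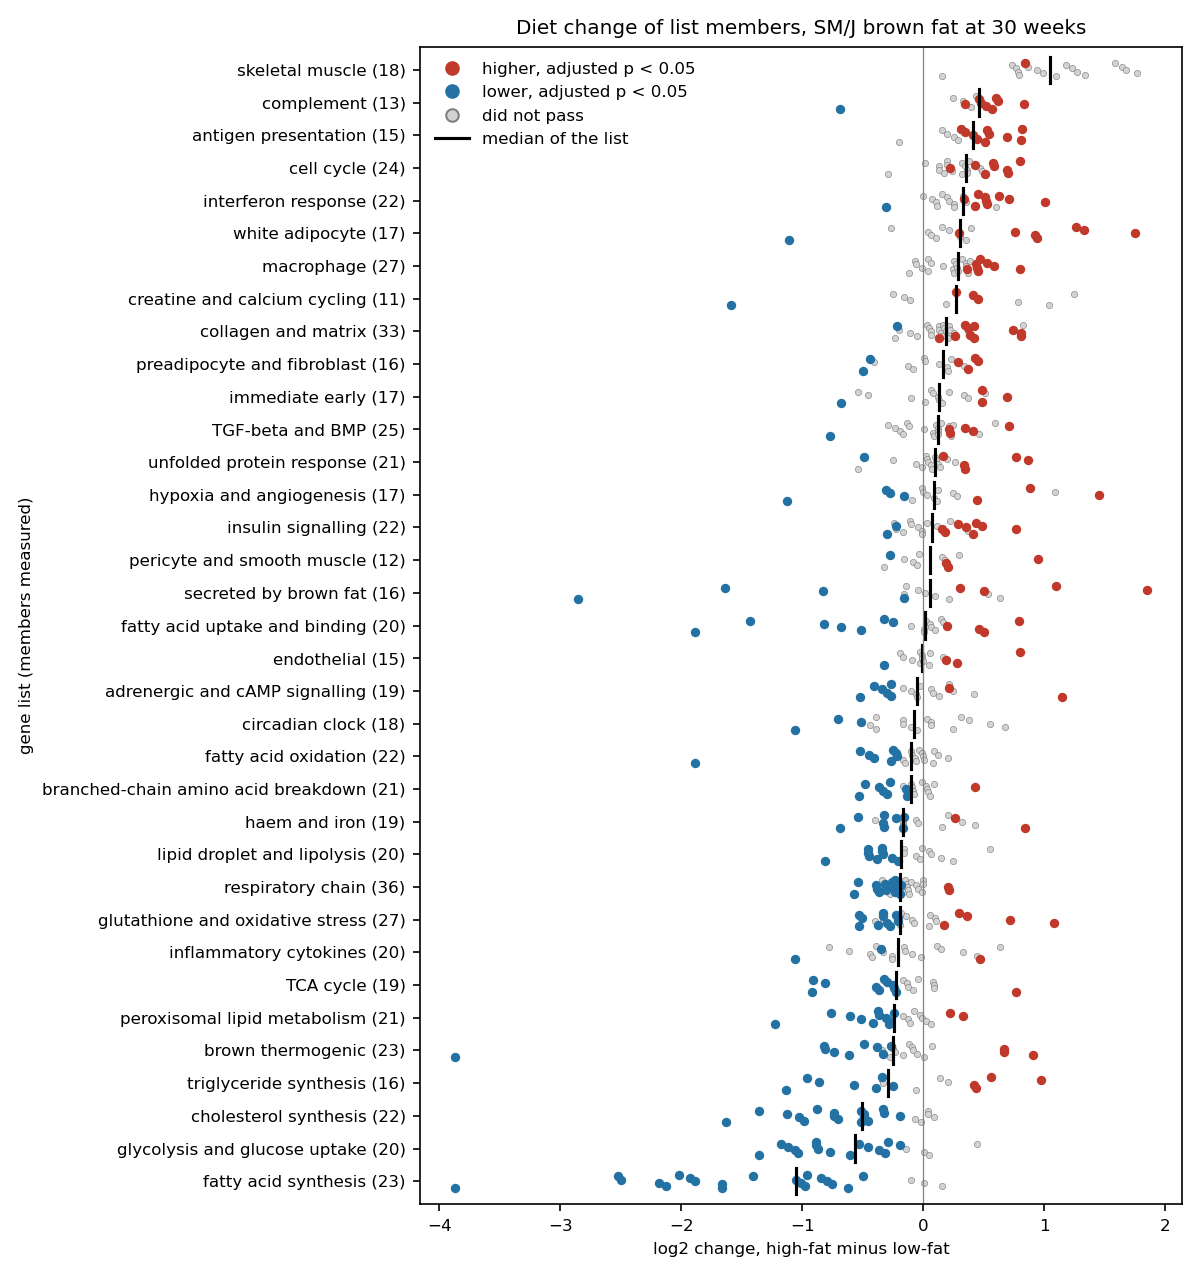
Change of each member of 35 gene lists, as log2 of high-fat over low-fat on the x axis, with the lists and their number of measured members on the y axis. Red and blue points passed the test, grey points did not, and the black bar is the median of the list. Fatty acid synthesis (median -1.05), glycolysis (-0.57) and cholesterol synthesis (-0.50) lie farthest to the left, with no member called higher.

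The genes of fatty acid synthesis formed the lowest list. Of 23 measured members, 20 fell and none rose, with a median change of -1.05 against 0.02 over all genes. Together the 23 genes took 8.38% to 12.3% of all normalised counts in the low-fat libraries and 3.19% to 6.70% in the high-fat libraries, so that the diets did not overlap. Fasn, fatty acid synthase, the enzyme that builds palmitate, stood at 25543 to 47744 CPM (median 40951) on the low-fat and 3249 to 11358 (median 7362) on the high-fat diet. Every high-fat mouse was below every low-fat mouse, and Fasn fell by 2.50 on the log2 scale (SE 0.23, adjusted p = 5.00e-07). Acly, ATP citrate lyase, which splits citrate to acetyl-CoA in the cytosol, was at 4188 to 9416 CPM (median 7034) on the low-fat and 591 to 2288 (median 1221) on the high-fat diet, a change of -2.52 (SE 0.24, adjusted p = 6.42e-07). Slc25a1, the carrier that brings citrate out of the mitochondrion, was at 752 to 1572 CPM (median 1064) and 140 to 398 (median 223), a change of -2.18 (SE 0.20, adjusted p = 4.20e-07). In both genes the diets were again fully apart.

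A gene of the pentose phosphate pathway, a supplier of reducing power and genes of later steps fell as well. Tkt, transketolase of the pentose phosphate pathway, changed by -2.13 (SE 0.15, adjusted p = 5.52e-08) and had no overlap between diets, at 1237 to 2837 CPM on the high-fat against 5561 to 10949 on the low-fat diet. Elovl6, which lengthens palmitate, changed by -1.92 (SE 0.17), and Aacs, which makes acetoacetyl-CoA from ketone bodies, by -1.41 (SE 0.13). Among other members, Me1 (malic enzyme, a source of NADPH) changed by -2.02, Acaca (acetyl-CoA carboxylase) by -1.89, Thrsp (a lipogenic protein) by -1.66 and Scd1, the main stearoyl-CoA desaturase, by -0.62. Scd1 was at 18793 to 39590 CPM (median 30171) on the high-fat and 35424 to 54342 (median 49784) on the low-fat diet, with overlapping groups. The fall of Scd1 was not called without the 5 libraries with high muscle sums, where it was -0.54, nor on the deposited scale, where it was -0.38. Of the transcription factors of the pathway, Mlxipl (ChREBP) changed by -0.75 and Srebf1 (SREBP1) by -0.49. All 6 of these were named after their values were seen. The 3 members that did not pass were Fads1 (0.01), Fads2 (-0.10) and Elovl1 (0.16), of polyunsaturated and long-chain fatty acid synthesis, also named after their values were seen.

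Because the genes of fatty acid synthesis and of the next lists moved together, the 250 bases before the RefSeq transcription start of 4 of them (build GRCm38.p6, the first start listed) are shown. They were picked after their motifs were seen, Fasn and Slc25a1 for palmitate synthesis and citrate export, Ldha for glycolysis and Insig1 for sterol control. Capitals mark CCAAT, the core of the NF-Y site, and the E-box CACGTG, a kind of motif that ChREBP and SREBP factors are known to read, each on either strand.
Fasn, chr11:120824548-120824797, minus strand: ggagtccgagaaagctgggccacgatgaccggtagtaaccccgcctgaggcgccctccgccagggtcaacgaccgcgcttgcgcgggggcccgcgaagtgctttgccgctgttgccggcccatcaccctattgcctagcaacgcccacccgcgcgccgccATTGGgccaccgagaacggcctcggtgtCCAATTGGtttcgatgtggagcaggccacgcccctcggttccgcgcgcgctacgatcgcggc
Slc25a1, chr16:17928220-17928469, minus strand: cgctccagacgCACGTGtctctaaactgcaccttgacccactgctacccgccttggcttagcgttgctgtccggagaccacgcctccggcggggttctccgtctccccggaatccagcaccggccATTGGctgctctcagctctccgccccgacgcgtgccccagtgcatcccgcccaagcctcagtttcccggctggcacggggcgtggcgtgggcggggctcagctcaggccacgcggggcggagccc
Ldha, chr7:46845554-46845803, plus strand: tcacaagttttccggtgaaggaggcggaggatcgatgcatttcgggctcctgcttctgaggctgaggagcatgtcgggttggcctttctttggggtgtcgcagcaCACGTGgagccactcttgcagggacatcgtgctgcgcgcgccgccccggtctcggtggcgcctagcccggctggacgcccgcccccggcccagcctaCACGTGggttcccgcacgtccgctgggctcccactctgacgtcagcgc
Insig1, chr5:28071162-28071411, plus strand: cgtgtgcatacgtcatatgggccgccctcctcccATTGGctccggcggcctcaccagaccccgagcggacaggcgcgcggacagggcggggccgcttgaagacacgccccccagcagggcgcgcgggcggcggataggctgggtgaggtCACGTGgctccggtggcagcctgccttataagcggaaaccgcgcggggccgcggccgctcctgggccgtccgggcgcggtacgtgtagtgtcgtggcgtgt
The Fasn window holds 3 matches of the NF-Y core, of which 2 overlap on opposite strands, and no E-box. Slc25a1 and Insig1 hold 1 of each, and Ldha holds 2 E-boxes and no NF-Y core. The NF-Y core stood in 10 of the 19 fatty acid synthesis members with a promoter in the table (52.6%), in 7 of 19 glycolysis members (36.8%) and in 34.5% of all 27025 promoters. The E-box stood in 2 of 19 (10.5%), 4 of 19 (21.1%) and 6.05% of all. For cholesterol synthesis only 15 of 22 measured members had a promoter in the table, too few, so that a share over this list would be void. A match describes these letters and is not a measured binding site.

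**Figure D2:**
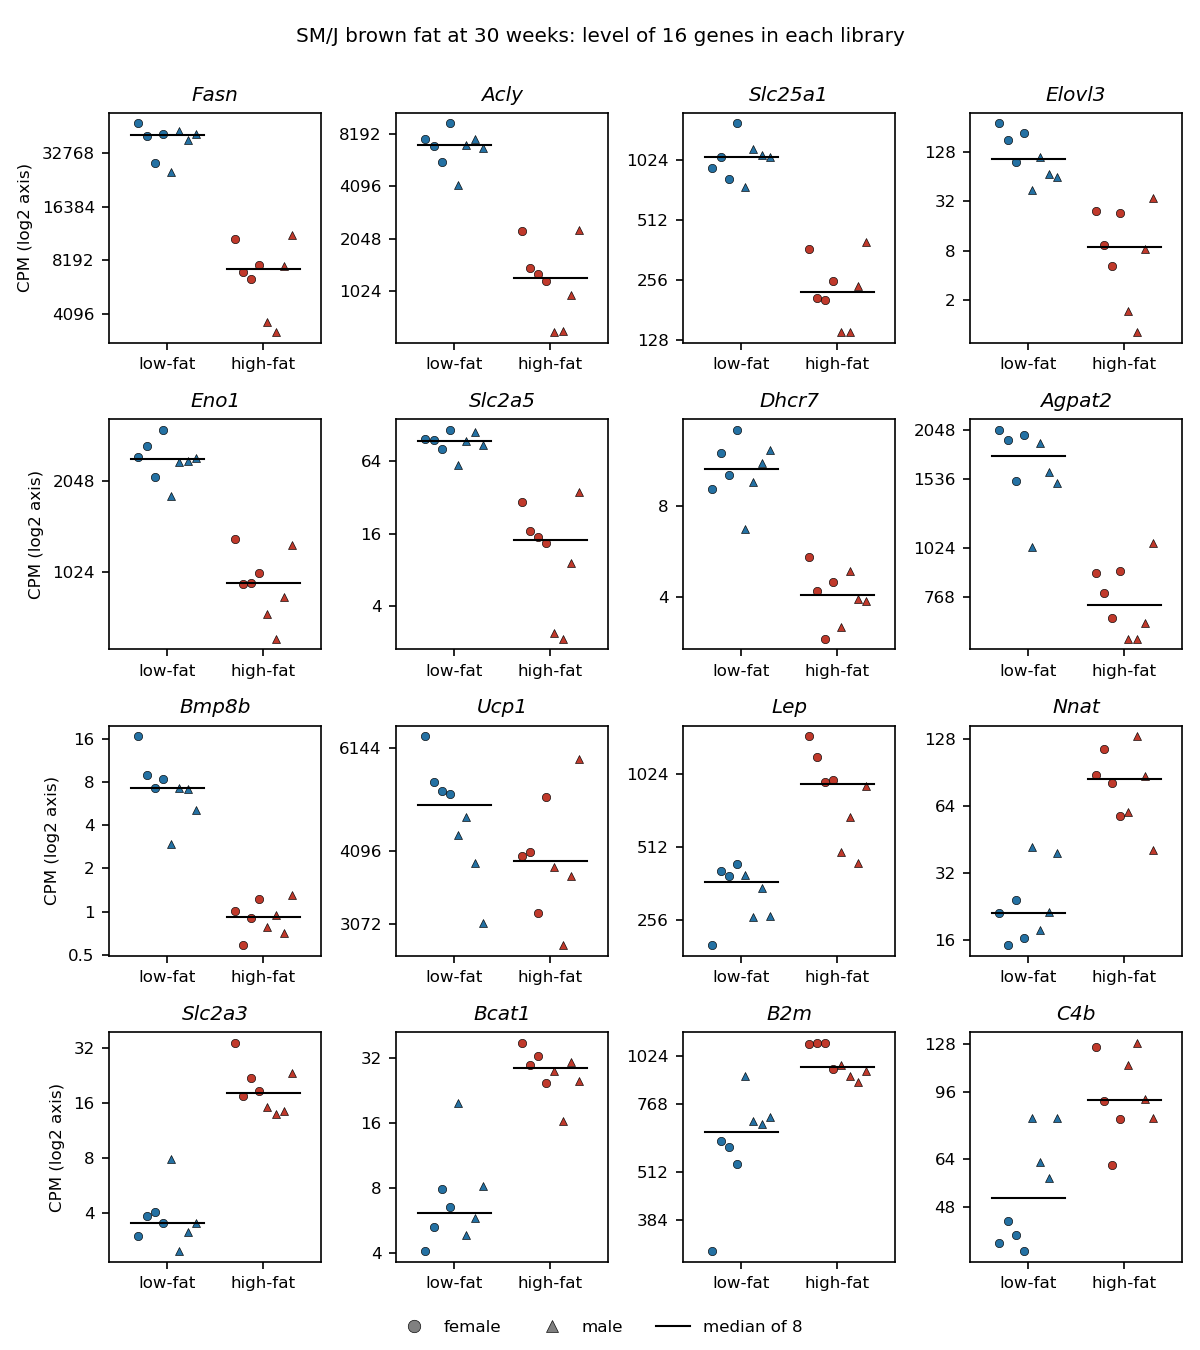
Level of 16 genes in each of the 16 libraries, in CPM on a log2 axis, with low-fat mice in blue and high-fat mice in red, circles for females, triangles for males and a bar at the median of 8. Fasn, Acly and Slc25a1 have no overlap between diets, Ucp1 overlaps almost fully, and the triangle nearest to the red points in the low-fat groups of Bcat1 and Slc2a3 is male 552.

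Glucose enters this route through glycolysis, whose genes were also lower. Of 20 measured glycolysis and glucose uptake genes, 16 fell and none rose, with a median of -0.57. Their share of normalised counts was 2.39% to 3.09% on the low-fat and 1.59% to 2.02% on the high-fat diet. Eno1, enolase, was at 614 to 1317 CPM (median 938) on the high-fat and 1833 to 3031 (median 2416) on the low-fat diet. It changed by -1.36 (SE 0.13, adjusted p = 5.03e-07), with no overlap. Aldoa, aldolase, changed by -1.18 (SE 0.11), Gpi1, glucose phosphate isomerase, by -1.05 (SE 0.11) and Pfkp, a phosphofructokinase, by -0.88 (SE 0.08). Ldha, lactate dehydrogenase A, named here for its promoter, changed by -0.77, and Slc2a4, the insulin-responsive glucose transporter GLUT4, named after its values were seen, by -0.60. In each of these but Slc2a4 the diets did not overlap.

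2 other sugar transporters stood among the largest changes of all genes, in opposite directions. Slc2a5, the fructose transporter GLUT5, was at 59.1 to 116 CPM (median 94.9) on the low-fat and 2.13 to 35.3 (median 14.2) on the high-fat diet, a change of -3.08 (SE 0.44, adjusted p = 3.46e-05). Slc2a3, the high-affinity glucose transporter GLUT3, was at 2.47 to 7.91 CPM (median 3.51) on the low-fat and 13.9 to 34.2 (median 18.1) on the high-fat diet, a change of 2.33 (SE 0.21, adjusted p = 2.83e-07). Neither gene overlapped between diets. Gys2, a glycogen synthase best known from liver, changed by -2.18 (SE 0.24, adjusted p = 2.88e-06), from 69.1 to 147 CPM on the low-fat to 7.75 to 37.3 on the high-fat diet.

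In the citric acid cycle list, which includes entry of pyruvate into the mitochondrion, the members with the smallest p are those of pyruvate entry and Idh2. Of its 19 measured genes 10 fell and 1 rose, with a median of -0.22 that was 0.02 on the deposited scale and thus changed sign there. Without the 5 libraries with high muscle sums, 6 fell and 1 rose. Mpc1 and Mpc2, the subunits of the mitochondrial pyruvate carrier, changed by -0.92 (SE 0.11) and -0.81 (SE 0.13). Pdhb, a subunit of pyruvate dehydrogenase, was at 548 to 994 CPM on the high-fat and 1166 to 1688 on the low-fat diet, a change of -0.91 (SE 0.11, adjusted p = 7.44e-06). The 1 gene that rose was Idh2, the NADP-dependent isocitrate dehydrogenase of mitochondria, at 947 to 1089 CPM on the high-fat against 468 to 741 on the low-fat diet, a change of 0.77 (SE 0.08, adjusted p = 1.17e-06). Idh2 and Pdhb each had no overlap.

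Cholesterol synthesis fell in 17 of 22 measured genes and rose in none, with a median of -0.50. Dhcr7, a reductase of the last steps, was at 2.90 to 5.42 CPM (median 4.05) on the high-fat and 6.71 to 14.4 (median 10.7) on the low-fat diet. It changed by -1.36 (SE 0.15, adjusted p = 2.04e-06). Pmvk, phosphomevalonate kinase, changed by -1.02 (SE 0.12) and Lss, lanosterol synthase, by -0.88 (SE 0.09), and all 3 genes were fully apart. Insig1, the SREBP retention protein, named after its values were seen, changed by -0.73 (SE 0.10).

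**Figure D3:**
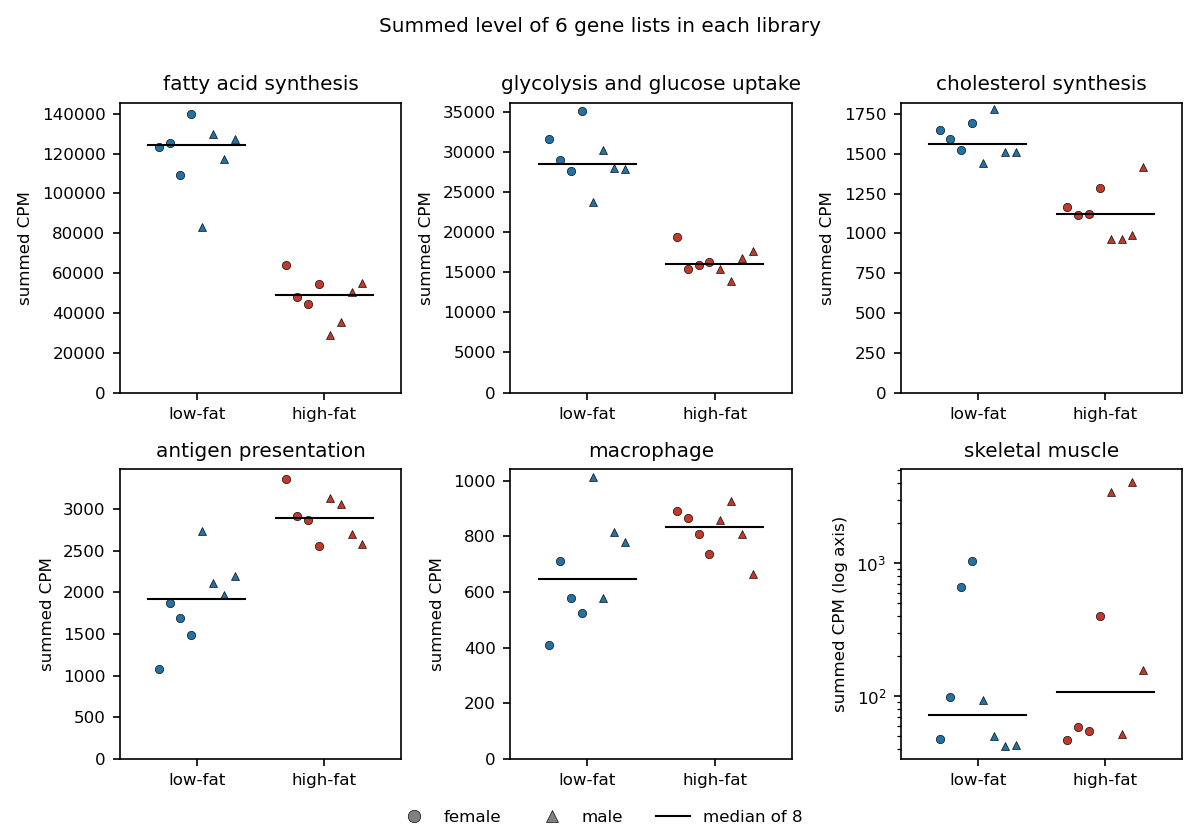
Summed CPM of the measured members of 6 gene lists in each library, low-fat in blue and high-fat in red, circles for females, triangles for males and a bar at the median of 8 (skeletal muscle on a log10 axis). The fatty acid synthesis and glycolysis sums do not overlap between diets, and the lowest low-fat sum of fatty acid synthesis, 83269 CPM, is male 552.

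Genes that assemble and handle triglyceride were mixed. Of 16 triglyceride synthesis genes 7 fell and 4 rose, with a median of -0.29. Agpat2, an acyltransferase needed for fat storage, was at 601 to 1053 CPM (median 732) on the high-fat and 1028 to 2049 (median 1752) on the low-fat diet and changed by -1.13 (SE 0.13, adjusted p = 4.45e-06), and male 552 was the lowest low-fat mouse. Gpd1, which makes glycerol 3-phosphate, changed by -0.96 (SE 0.15) and Agpat1 by -0.57 (SE 0.07), while Lpin3, a phosphatidate phosphatase, changed by 0.97 (SE 0.11). On droplets and in lipolysis, 10 of 20 genes fell and none rose, with a median of -0.18 that was 0.02 after scaling by library total. Plin2, a droplet coat protein, was at 1125 to 1841 CPM on the high-fat and 2133 to 2814 on the low-fat diet, a change of -0.81 (SE 0.10, adjusted p = 5.89e-06). Smaller changes were those of Bscl2 (seipin, -0.46), Lipe (hormone-sensitive lipase, -0.44) and Mgll (monoglyceride lipase, -0.34), the last not called after scaling by library total (-0.14) or on the deposited scale (-0.10).

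Fatty acid binding proteins changed in both directions. In the uptake and binding list, 7 of 20 genes fell and 4 rose, with a median of 0.02. Fabp5 changed by -1.43 (SE 0.12, adjusted p = 1.22e-07), at 32.6 to 63.1 CPM on the high-fat and 98.8 to 162 on the low-fat diet. Fabp3, the form found in heart and active brown fat, changed by 0.80 (SE 0.11, adjusted p = 2.40e-05), at 1194 to 1754 CPM on the high-fat and 620 to 1150 on the low-fat diet. High-fat mice 653, 656 and 786, with high muscle sums, had 1754, 1537 and 1458 CPM of Fabp3, and the other high-fat mice 1194 to 1304. Of the low-fat females with high muscle sums, 661 had 1150 CPM and 662 had 731. The part of muscle in the rise of Fabp3 was not tested. Acsl5, an acyl-CoA synthetase, changed by -1.88 (SE 0.19), and Lrp1, a lipoprotein receptor, by 0.46 (SE 0.09). The call of Lrp1 was lost without the 5 libraries with high muscle sums (0.32), where 3 genes of the list fell and 2 rose and the median was -0.06.

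The thermogenic genes were mixed, and Ucp1 did not pass. Ucp1 was at 2825 to 5888 CPM (median 3936) on the high-fat and 3088 to 6450 (median 4913) on the low-fat diet, and the groups overlapped almost fully. Its change of -0.23 (SE 0.15) did not pass (adjusted p = 0.223). Separate estimates were -0.44 in females and -0.01 in males, without high-fat male 700 it was called at -0.33, and on the deposited scale it was 0.01. Of 23 thermogenic genes 9 fell and 3 rose, with a median of -0.25, or -0.00 on the deposited scale. Of these, 5 fell and 2 rose without the 5 libraries with high muscle sums. Cidea, a droplet protein that marks brown fat, changed by -0.38 (SE 0.10, adjusted p = 0.00638), a call lost after scaling by library total (-0.18), on the deposited scale (-0.14) and without the 5 libraries (-0.39). Otop1, a proton channel, changed by -0.81 (SE 0.09, adjusted p = 2.41e-06) and Letmd1, a mitochondrial protein of brown adipocytes, by -0.73 (SE 0.10). Ebf2, a factor of brown adipocyte identity, changed by 0.67 (SE 0.09), at 86.2 to 148 CPM on the high-fat and 63.2 to 74.7 on the low-fat diet.

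The largest fall of any named gene belonged to Elovl3, which lengthens saturated fatty acids and is known to be strongly induced by cold in brown fat. It was at 44.0 to 288 CPM (median 104) on the low-fat and 0.800 to 35.5 (median 8.84) on the high-fat diet. The change was -3.87 (SE 0.57, adjusted p = 5.20e-05), 14.6-fold, with no overlap, and the spread within each diet was wide. Bmp8b, a secreted factor that raises the response of brown fat to noradrenaline, changed by -2.85 (SE 0.24, adjusted p = 1.55e-07), from 2.98 to 16.7 CPM on the low-fat to 0.586 to 1.31 on the high-fat diet. Of the 16 genes of the list of factors secreted by brown fat, 4 fell and 4 rose, with a median of 0.06. Only 5 of the 16 were called without high-fat female 729 or high-fat male 656, and 3 fell and 2 rose without the 5 libraries with high muscle sums. They included Ptgds, prostaglandin D synthase (-1.64, SE 0.26), Ctsb, cathepsin B (-0.83, SE 0.06) and Epdr1, a secreted ependymin-like protein (1.85, SE 0.17).

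In the adrenergic and cAMP list 6 of 19 genes fell and 2 rose, with a median of -0.05 that was 0.15 after scaling by library total. Adrb1, the beta-1 receptor, changed by -0.52 (SE 0.08) and Prkaca, the catalytic subunit of protein kinase A, by -0.41 (SE 0.06). Rgs2, which dampens G protein signals, changed by 1.15 (SE 0.19, adjusted p = 1.60e-04), at 25.7 to 109 CPM on the high-fat and 16.6 to 31.5 on the low-fat diet. Alpl, an alkaline phosphatase with a known part in creatine cycling, changed by -1.59 (SE 0.23), and Ckb, creatine kinase B, by 0.45 (SE 0.10). In that list of 11 genes, 1 fell and 3 rose, with a median of 0.27. This median was 0.08 without the 5 libraries with high muscle sums, -0.19 in females and -0.12 at 20 weeks. The list also holds genes of muscle, such as Atp2a1 and Ryr1, and the part of muscle in its median was not tested.

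Mitochondrial and peroxisomal genes were slightly lower, and the sign of each median in this paragraph depended on the scaling. In the respiratory chain 17 of 36 genes fell and 2 rose, with a median of -0.19 (0.01 after scaling by library total). Without the 5 libraries with high muscle sums, 7 fell and 1 rose, and 12 were called without low-fat female 662 alone. Uqcrc1 of complex III changed by -0.57 (SE 0.08), Ndufb8 of complex I by -0.54 (SE 0.11) and Sdha of complex II by -0.36 (SE 0.07), the last not called on the deposited scale (-0.12). In fatty acid oxidation 8 of 22 fell and none rose (median -0.10, 0.10 after scaling by library total), and 4 fell without those libraries. Hadha, of the mitochondrial trifunctional protein, changed by -0.52 (SE 0.08). In peroxisomes 11 of 21 fell and 2 rose (median -0.24, 0.01 on the deposited scale), among them the import factors Pex16 (-0.76) and Pex5 (-0.60). Branched-chain amino acid breakdown had 8 of 21 lower and 1 higher (median -0.10, 0.10 after scaling by library total), with Bckdha, of the rate-setting dehydrogenase, at -0.53 (SE 0.07) and Ppm1k, the phosphatase that activates it, at 0.43 (SE 0.06). There, 4 fell and 1 rose without the 5 libraries.

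Other large falls included receptors and membrane proteins. Ramp1, a partner of the CGRP receptor, was at 3.77 to 21.5 CPM on the low-fat and 0.539 to 1.58 on the high-fat diet, a change of -3.70 (SE 0.31, adjusted p = 1.77e-07). Sorcs2, a neurotrophin co-receptor, was at 89.0 to 232 CPM and 7.91 to 20.8, a change of -3.55 (SE 0.24, adjusted p = 2.79e-08). Pth1r, the parathyroid hormone receptor, was at 49.5 to 118 CPM (median 91.0) and 8.39 to 14.4 (median 11.1), a change of -2.97 (SE 0.15, adjusted p = 2.13e-09). Each had no overlap between diets. Hsd11b1, which regenerates active glucocorticoid, changed by -2.74 (SE 0.22), from 192 to 347 CPM on the low-fat to 14.1 to 59.2 on the high-fat diet. The rest of the 15 largest falls were Adprhl1 (-3.36), Aqp11, a water channel (-3.15), Rab6b, a Golgi GTPase (-2.69), Rims4 (-2.66), Ttc25 (-2.47) and Myl3 (-2.31), besides Elovl3, Slc2a5, Acly, Fasn and Gys2. Myl3 is a myosin light chain of heart and slow muscle. It was at 8.96 and 6.92 CPM in high-fat males 656 and 653, which had the highest muscle sums, at 0.374 to 1.16 in the other 6 high-fat mice and at 2.92 to 12.6 on the low-fat diet. Its change was -3.14 in females, -1.47 in males and -3.26 without the 5 libraries with high muscle sums.

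Among the largest rises, Eya2, a transcriptional co-activator, was at 23.2 to 34.7 CPM (median 30.8) on the high-fat and 0.766 to 10.8 (median 3.06) on the low-fat diet. It changed by 3.31 (SE 0.31, adjusted p = 5.82e-07), 9.90-fold. Bcat1, which starts branched-chain amino acid breakdown in the cytosol, was at 16.4 to 37.8 CPM (median 28.8) on the high-fat and 4.07 to 19.8 (median 6.15) on the low-fat diet, a change of 1.98 (SE 0.25), and its only overlap came from low-fat male 552. Rarres2, chemerin, an adipokine, changed by 1.75 (SE 0.15, adjusted p = 2.87e-07) and Nnmt, nicotinamide N-methyltransferase, by 1.78 (SE 0.21). Gpc1, a heparan sulfate proteoglycan, changed by 1.86 (SE 0.18), Apol6 by 1.86 (SE 0.17) and Pawr, a regulator of cell death, by 1.92 (SE 0.19). Cyp2b10, a xenobiotic cytochrome P450 with near-identical paralogs that reads may not separate, changed by 2.95 (SE 0.34). Also among the 15 largest were Col28a1 (1.67), the imprinted Peg3 (1.66), Fxyd6 (1.56), Itih4 (1.75) and Actn2 (1.82). Actn2 is a muscle gene that changed by 2.93 in males and 0.72 in females, beside the muscle sums of 4045 and 3425 CPM in 2 of the 4 high-fat males, and the part of muscle in its rise was not tested. Itih4 was not called without the 5 libraries with high muscle sums (1.62).

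Genes typical of white adipocytes were higher in part. Of 17 measured, 7 rose and 1 fell, with a median of 0.31. Lep, leptin, was at 438 to 1463 CPM (median 932) on the high-fat and 201 to 432 (median 366) on the low-fat diet. All 8 high-fat values lay above all low-fat values, and Lep rose by 1.33 (SE 0.19, adjusted p = 4.50e-05). Nnat, neuronatin, an imprinted gene that tracks fat mass, changed by 1.75 (SE 0.24, adjusted p = 2.87e-05), at 40.5 to 132 against 15.2 to 42.0 CPM. Mest, another imprinted gene linked to adipocyte enlargement, changed by 1.26 (SE 0.17) and Npr3, the natriuretic peptide clearance receptor, by 0.92 (SE 0.13). Adipoq, adiponectin, was at 663 to 830 CPM on the high-fat and 634 to 886 on the low-fat diet (0.06, adjusted p = 0.489).

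In insulin signalling 8 of 22 genes rose and 2 fell (median 0.07), among them Foxo3, a factor held inactive by insulin (0.42, SE 0.07), and Trib3, an inhibitor of Akt (0.77, SE 0.16). Of those that fell, Tbc1d4 gates the move of GLUT4 to the surface. It was at 67.3 to 90.7 CPM on the high-fat and 86.4 to 107 on the low-fat diet and changed by -0.30 (SE 0.06, adjusted p = 0.00111). Its call was lost after scaling by library total (-0.10) and on the deposited scale (-0.06). Asns, asparagine synthetase, a target of amino acid stress, changed by 0.87 (SE 0.10, adjusted p = 5.80e-06) in an unfolded protein list with 5 of 21 higher and 1 lower (median 0.10). Bnip3, a mitophagy receptor, changed by 0.89 (SE 0.09), Adm, adrenomedullin, by 1.45 (SE 0.22) and Egln3, an oxygen sensor, by -1.12 (SE 0.19), in a hypoxia and vessel list with 3 of 17 higher and 4 lower (median 0.09). Tgfbr2, the type 2 TGF-beta receptor, was at 126 to 166 CPM on the high-fat and 222 to 275 on the low-fat diet, a change of -0.77 (SE 0.06, adjusted p = 8.99e-08). Bmp2 changed by 0.71 (SE 0.17), a call lost without the 5 libraries with high muscle sums (0.67), and in the TGF-beta and BMP list 5 of 25 rose and 1 fell (median 0.13). The clock list had 3 of 18 lower and none higher, with Bhlhe40 at -0.70 (SE 0.10) and a median of -0.07 that was 0.13 after scaling by library total. Without male 552, 7 of the 18 and 12 of the 25 were called. The TGF-beta and BMP list had 2 higher and 1 lower without the 5 libraries with high muscle sums. Glutathione genes were split, 11 of 27 lower and 5 higher (median -0.19, 0.01 after scaling by library total), with Gsta3 at 1.08 (SE 0.18). Of them 5 were lower and 2 higher without the 5 libraries. Haem and iron genes had 8 of 19 lower and 2 higher (median -0.16, 0.04 after scaling by library total). The immediate early list, of genes that respond to handling and stimuli within a short time, had 3 of 17 higher and 1 lower (median 0.13), and 2 calls were left without high-fat female 740 or low-fat female 661. Its median was 0.58 without the 5 libraries with high muscle sums. Over all genes 18.1% were called higher and 19.3% lower. The higher calls of the hypoxia, TGF-beta and immediate early lists and the lower calls of the clock list lay near these shares.

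Antigen presentation rose in 10 of 15 genes and fell in none, with a median of 0.41. B2m, the light chain of MHC class I, was at 876 to 1108 CPM (median 956) on the high-fat and 319 to 909 (median 649) on the low-fat diet. It changed by 0.70 (SE 0.14, adjusted p = 0.00101). H2-K1 (0.81) and H2-D1 (0.82), class I heavy chains with near-identical copies, are uncertain as single genes. The complement list had 8 of 13 higher and 1 lower, with a median of 0.47. C4b changed by 0.83 (SE 0.14), and C1qa and C1qb, made mainly by macrophages, by 0.61 (SE 0.10) and 0.62 (SE 0.11). The 1 gene that fell was C3, the central component (-0.68, SE 0.14). Complement sums overlapped, at 881 to 1248 CPM (median 1046) on the high-fat and 893 to 1434 (median 1093) on the low-fat diet. In the interferon response list 9 of 22 genes rose and 1 fell (median 0.33), with Rsad2 (1.00, SE 0.16), Ifit1 (0.62) and Ifih1 (0.51) as antiviral members. The summed level of this list did not rise. It was at 1370 to 1787 CPM (median 1428) on the high-fat and 1467 to 2003 (median 1672) on the low-fat diet. Ifit1 was not called without the 5 libraries with high muscle sums (0.46).

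Macrophage markers rose in 8 of 27 measured genes and fell in none, with a median of 0.29, and the group sums overlapped, at 666 to 928 CPM on the high-fat and 411 to 1012 on the low-fat diet. The highest low-fat sum was that of male 552, and without this library 13 of the 27 were called. The members with the smallest p were Lyve1 (0.80, SE 0.13), Mrc1 (0.59, SE 0.12), Csf1r (0.53, SE 0.10) and Folr2 (0.47, SE 0.10), all known from resident macrophages. Lyve1 is also a member of the endothelial list and is counted there too. Adgre1, the F4/80 antigen, changed by 0.45 (SE 0.15, adjusted p = 0.0260), a call lost in 5 of the 16 fits that leave out 1 library, without the 5 libraries with high muscle sums (0.50) and with all 32 SM/J brown fat libraries in the fit (0.46). Of 20 cytokine genes, 1 rose and 2 fell (median -0.21, 0.02 on the deposited scale), with Spp1, osteopontin, at -1.06 (SE 0.23). In this list 5 were called without male 552, and 1 without the 5 libraries with high muscle sums. Among cell cycle genes 8 of 24 rose and none fell (median 0.36). Leaving out 1 library moved this count to 4 (high-fat female 729 or 786), 5 (low-fat female 489 or low-fat male 627) or 13 (low-fat male 552). Mki67, a marker of dividing cells, changed by 0.70 (SE 0.21, adjusted p = 0.0160) and Cenpf by 0.80 (SE 0.23), Mki67 losing its call without the 5 libraries (0.79) and Cenpf in the fit of all 32 (0.82). Without those 5 libraries the calls were 6 higher in antigen presentation, 4 in interferon response, 5 for macrophages and 4 for the cell cycle, with none lower in these 4 lists. Males gave smaller medians than females, with of 0.21 and 0.61 for antigen presentation, 0.25 and 0.70 for complement and 0.06 and 0.53 for macrophages. Without low-fat male 552 the male medians were 0.26, 0.29 and 0.22. On the low-fat diet, females had antigen presentation sums of 1074 to 1879 CPM against 1974 to 2738 in males, and no single gene passed the test of diet by sex.

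In the matrix list 10 of 33 genes rose and 1 fell, with a median of 0.19. Nid1, a basement membrane protein, changed by 0.81 (SE 0.11, adjusted p = 2.75e-05), Lox, which cross-links collagen, by 0.81 (SE 0.17), Col18a1 by 0.74 (SE 0.16) and Sparc by 0.39 (SE 0.10). The main fibril gene Col1a1 did not pass, at 55.8 to 116 CPM on the high-fat and 57.9 to 171 on the low-fat diet (-0.20, adjusted p = 0.263), and its estimate was 0.01 after scaling by library total and 0.07 in females alone. Without the 5 libraries with high muscle sums, 5 matrix genes rose and 1 fell. Of other cell types, 4 of 16 preadipocyte and fibroblast markers rose and 2 fell (median 0.17), with Cd34 at 0.43 (SE 0.09). Among 12 pericyte and smooth muscle markers 3 rose and 1 fell (median 0.06), with Mcam at 0.95 (SE 0.11). The balance turned round without the 5 libraries with high muscle sums, with 1 higher and 3 lower and a median of -0.09. Pericyte calls were 7 without high-fat male 700. The 15 endothelial markers had 3 higher and 1 lower (median -0.01, 0.19 after scaling by library total). Their summed level was lower without overlap, at 8402 to 10609 CPM (median 9500) on the high-fat and 11306 to 12962 (median 11447) on the low-fat diet. As shares of all normalised counts the sums overlapped, at 0.926% to 1.10% and 1.01% to 1.18%. Of 7 mast cell and granulocyte markers 2 rose and 1 fell, Tpsb2, a tryptase, by 0.88 (SE 0.19) and Kit by -0.84 (SE 0.11). Of 6 nerve and Schwann cell markers 2 rose and 2 fell, among the last the myelin gene Mbp (-0.76, SE 0.08). The skeletal muscle list had the highest median, 1.05, and of its 18 genes Tnnt1 was called. Without the 5 libraries with high sums the median was 0.32 and 1 gene was called, and without low-fat female 662 alone 2 were. For preadipocyte and endothelial markers 1 gene each was called without those libraries. Acta1 ranged from 0.603 to 384 CPM on the high-fat and from 0.235 to 112 on the low-fat diet, with a change of 1.68 (SE 1.5, adjusted p = 0.399) that was -1.96 in females. None of the 5 measured red blood cell genes was called (median 0.40), and 3 were without low-fat male 552. T and NK cell, B cell, mesothelial and skin markers could hardly be followed, with 1 of 17, 2 of 11, 1 of 8 and 2 of 11 in both tables, of which 1 skin marker rose.

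Whether the diet effect differed between the sexes was tested directly, and limma called no gene (0% of 12759), with 1049 genes at an unadjusted p under 0.05. In separate fits of 4 against 4, females gave 4456 called genes and males 876, and males without mouse 552 gave 1601, each with fewer mice than the joint fit. Such counts do not show a difference in effect.

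At 20 weeks, in other mice of the same strain, 1851 genes were higher and 1666 lower (14.5% and 13.1% of all genes, 27.6% together). Of the genes called at 30 weeks, 1039 of those higher (44.9%) and 1333 of those lower (54.1%) were called the same way at 20 weeks, which is 56.1% and 80.0% of the calls at that age. Fatty acid synthesis had 16 of 23 lower and 1 higher at 20 weeks (median -0.97) and glycolysis 15 of 20 lower and 1 higher (median -0.53). Fasn was at 3929 to 24209 CPM (median 8099) on the high-fat and 18389 to 44603 (median 35342) on the low-fat diet at 20 weeks, a change of -1.79 (adjusted p = 8.74e-04). Eya2 changed by 3.13 and Lep by 1.15 at that age, both called. At 20 weeks 19 of 27 macrophage genes and 18 of 33 matrix genes were called higher, against 8 and 10 at 30 weeks. Of 20 cytokine genes 7 were higher and none lower at 20 weeks (median 0.92), against 1 higher and 2 lower at 30 weeks (median -0.21). Plin2 is an example in the other direction, with a change of -0.15 (adjusted p = 0.558) at 20 weeks against -0.81 at 30 weeks. None of these is shown to differ with age, since the test of diet by age in limma called no gene (0%), with 1168 at an unadjusted p under 0.05.

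LG/J brown fat of the same age gave another picture. In these mice 139 genes were higher and 101 lower (1.1% and 0.801% of 12615 genes, 1.9% together). The test of diet by strain called 1426 genes with a more positive and 1668 with a more negative change in SM/J (11.6% and 13.6% of 12257 genes, 25.2% together). Here too strain and diet each go with a table of their own. For glycolysis the median change in LG/J was 0.07, and 16 of the 20 genes had a called difference, all more negative in SM/J, Eno1 for example at -1.36 and -0.26 (difference -1.09, SE 0.29, adjusted p = 0.00573). For fatty acid synthesis the LG/J median was -0.25 with no gene called, and 12 of 23 had a called difference, all more negative in SM/J. Fasn and Acly were not among them, with LG/J changes of -0.99 and -0.95 and differences of -1.51 (SE 0.59, adjusted p = 0.0558) and -1.57 (SE 0.67, adjusted p = 0.0815). LG/J values of Fasn were spread widely, from 2333 to 29051 CPM on the high-fat and 6958 to 41309 on the low-fat diet.

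Ucp1 was among the genes that differed by strain. In LG/J it was at 5659 to 9871 CPM (median 6488) on the high-fat and 3154 to 6159 (median 4253) on the low-fat diet, a rise of 0.64 (SE 0.15, adjusted p = 0.0445). The difference of SM/J from LG/J was -0.87 (SE 0.22, adjusted p = 0.00425). The 4 most negative differences of the named rule were those of Elovl3 (-4.16), Adprhl1 (-3.12), Gys2 (-2.82) and Rims4 (-2.23). Gys2 was at 24.8 to 89.1 CPM on the high-fat and 20.8 to 57.6 on the low-fat diet in LG/J (0.63), where SM/J changed by -2.18. The 4 most positive were Eya2 (2.48), Apcdd1, a Wnt inhibitor (2.44), Casp12 (2.24) and Rsad2 (2.23), the last at 1.00 in SM/J and -1.23 in LG/J. B2m differed by 1.11 (SE 0.37, adjusted p = 0.0256), from 0.70 in SM/J and -0.41 in LG/J. Over the antigen presentation list the LG/J median was -0.69, and 3 of 15 genes had a called difference.

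**Figure D4:**
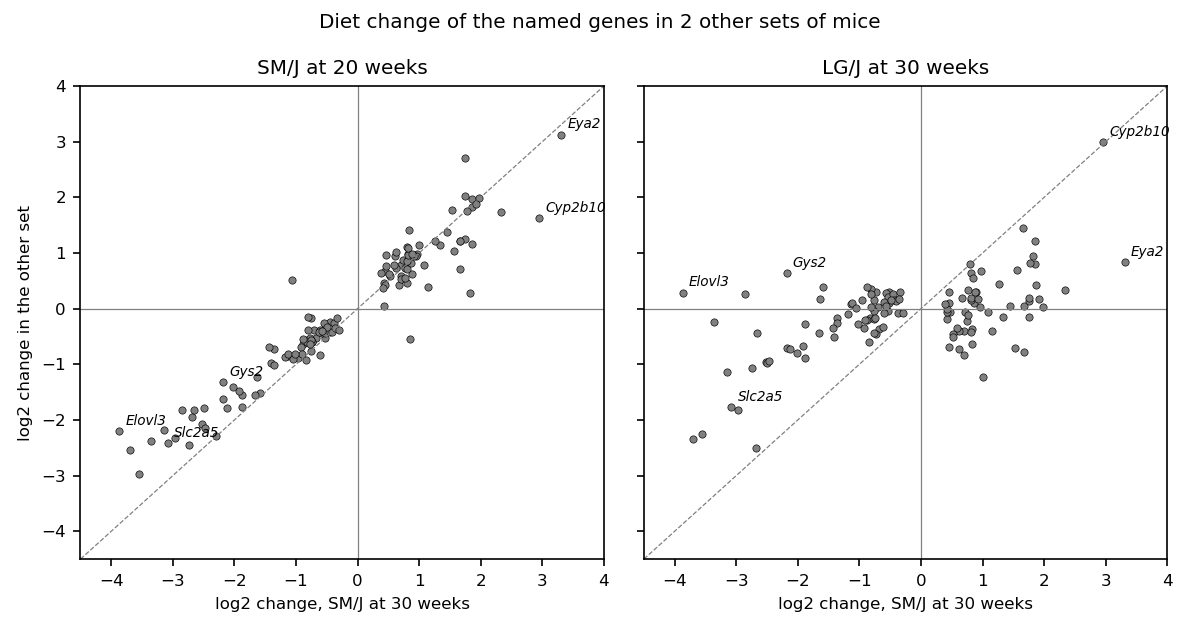
Change of 131 named genes that were called at 30 weeks, as log2 of high-fat over low-fat, in SM/J at 30 weeks on the x axis against SM/J at 20 weeks (left) and LG/J at 30 weeks (right, 128 genes) on the y axis, with the dashed line at equal change. The genes were chosen on the x axis, 129 of 131 have the same sign at 20 weeks, and in the right panel 75 of 128 do, with Elovl3 and Gys2 above 0.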

How the data were processed

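Interscapular brown fat RNA of SM/J and LG/J mice was sequenced after ribosomal RNA removal, per the labels' protocols. The submitters' processing notes name STAR 2.6.0c, the build mm10 and edgeR (version not given in the sources used here). What the authors deposited is a normalised signal for each gene in each library, in 8 tables scaled apart from each other. They are fractional, so no count model was used. Only autosomal genes are analysed here. The SM/J high-fat brown fat table has 2 decimals and another gene order than the rest.

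The 2 SM/J brown fat tables were joined on 12759 shared genes, of 13252 and 12875, and rescaled together by trimmed mean of M values (own code, trims of 30% and 5%), with factors of 1.03 to 1.14 in high-fat and 0.882 to 1.01 in low-fat libraries. log2(CPM + 0.1) was fitted with limma-trend (limma 3.58.1, R 4.3.3), with diet and sex as terms, two-sided, Benjamini-Hochberg over all genes. A fold change on this scale understates that of low genes. Diet by sex, by age and by strain were interaction contrasts. The code was tested on simulated data. Symbols came from GENCODE M21 (12644 of 12759 identifiers). The genes named were taken from up to 15 largest rises and falls at a mean of at least 5 CPM with the same sign in both sexes, the 4 members of each list with the smallest p, up to 4 per direction of each interaction, and 8 genes always followed. Others are said to be named after their values were seen, and not every gene of the rule is named. A few results are not reported here. The comparison, the gene lists and the rules were chosen with earlier results of these data known. Lists were described by counts and medians without a test.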

Additional observations from a re-analysis of the deposited data

Results flagged for a closer look

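Among 276 groups of 8 libraries tested on the log2 scale for a single value far from the others (138 named genes, 2 diets), 27 had one, where chance gives about 1 in 20. Low-fat male 552 accounted for 18 of the 27. In it Agpat2 (1028 CPM), Cidea (1907), Elovl6 (580), Lipe (1047), Lss (45.3), Myl3 (2.92), Pex16 (78.8), Rab6b (44.2), Ramp1 (3.77), Rims4 (12.1) and Thrsp (2866) were the lowest low-fat values. Adm (12.8), Asns (31.4), Bcat1 (19.8), Elovl1 (19.4), Itih4 (23.3), Pawr (20.8) and Slc2a3 (7.91) were the highest ones there. For the called genes among these, each lies on the side of the high-fat mice.

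In other low-fat libraries the single values were Adrb1 at 21.5 CPM in male 631, C1qa at 42.4 in female 489, Fabp3 at 1150 in female 661, Fabp5 at 162 and Hsd11b1 at 347 in female 662, and Insig1 at 452 in male 627. In high-fat libraries they were C1qb at 81.5 CPM in female 646, Cidea at 1655 in male 655 and Nid1 at 259 in male 700.

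The diet effect differed between SM/J and LG/J, by the test of the difference, in 3094 genes. Named ones were Elovl3 (-4.16), Adprhl1 (-3.12), Gys2 (-2.82), Rims4 (-2.23), Eno1 (-1.09) and Ucp1 (-0.87), more negative in SM/J, and Eya2 (2.48), Apcdd1 (2.44), Casp12 (2.24), Rsad2 (2.23) and B2m (1.11), more positive in SM/J.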

How the results depend on the processing

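No paired analysis was possible because high-fat and low-fat mice share no animal number. Trimmed-mean scaling set the balance of calls. Scaling by library total moved the median of all genes to 0.22 and gave 6049 higher and 987 lower (86.0% higher), and the deposited values gave a median of 0.26 and 7016 higher and 785 lower, 7801 in all (89.9% higher). At 20 weeks these scalings gave 4266 higher and 784 lower, and 6184 higher and 555 lower (6739 in all), and for diet by strain 4011 and 603, and 5532 and 428 (5960 in all). Males alone gave 375 higher and 501 lower (876), males without low-fat male 552 699 and 902 (1601), and the fit without the 5 libraries with high muscle sums 1391 and 1602 (2993), the last 2 chosen after seeing the data. Leaving out 1 library gave 4188 to 5449 calls, 2862 to 3939 at 20 weeks and 2650 to 3444 for diet by strain. For diet by sex it gave 0 to 1, namely Postn lower in males without high-fat male 655 and Arhgef37 higher without low-fat male 552, both seen only after the fits. Diet by age also gave 0 to 1, with Car14 called without high-fat male 655 or low-fat male 731 of 20 weeks. Relative log expression, a pseudocount of 1 and a mean of at least 5 CPM kept all these counts of calls within 1.5-fold. Robust moderation and no sex term, run for the diet effect at 30 weeks, kept its count within 1.5-fold. DESeq2 was not run, as the values are not whole counts.

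Signs turned only for genes that were not called, in these fits. By library total Col1a1 was 0.0053 and Fads2 0.10. On the deposited scale Col1a1 was 0.047, Fads2 0.14 and Ucp1 0.013. In females alone Acta1 was -1.96 and Col1a1 0.071, in males alone Fads1 was -0.018, and in males without 552 Adipoq was -0.069, Fads1 -0.11 and Ucp1 0.033. Leaving out 1 library moved Fads1 between -0.038 and 0.062. In females alone Actn2, Scd1, Tnnt1, Tpsb2 and Trib3 lost their call. In males alone 47 of the 138 named genes lost their call, and 24 in males without 552. The number of mice, 4 per sex and diet, limits those fits, and depth in reads is unknown.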

Other observations

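Genes present in only 1 of the 2 tables have no fold change. There were 493 in the high-fat table alone and 116 in the low-fat table alone. Values here are deposited normalised counts of the 8 libraries of 30 weeks, and the genes were named after these values were seen. Among those of the high-fat table were Ubd, a ubiquitin-like protein of inflamed tissue (116 to 231, median 176), Saa3, an acute-phase protein of fat (8.63 to 80.3, median 28.1), and Gzma, a granzyme of cytotoxic cells (20.4 to 60.0, median 39.2). From the gene lists it also held the dividing-cell genes Birc5 (median 26.8) and Bub1 (median 19.7), the resident macrophage gene Timd4 (median 23.1) and the white adipocyte genes Sfrp5 (median 25.7) and Wfdc21 (median 17.5).

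The low-fat table alone held Fgf21, the hormone of fasting and cold-exposed tissue (6.92 to 28.0, median 18.7), Fbp1, fructose bisphosphatase (23.4 to 88.5, median 48.6), and both subunits of the ATP-sensitive potassium channel, Kcnj11 (17.5 to 119, median 46.1) and Abcc8 (19.5 to 99.9, median 33.3). The absence of these genes from the other table does not show that they were silent there.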
